A study of Mus musculus with 3 samples.

Results

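MHC class II molecules present peptides from ingested material to CD4+ T cells, and their genes are followed here in the mouse hippocampus. The members are the 8 genes of the deposited table named Cd74, H2-Aa, H2-Ab1, H2-Eb1, H2-Ea-ps, H2-DMa, H2-DMb1 and Ciita, out of 54532 genes in all. The rule takes them by gene name, with any biotype, and uses no measured value. The list itself was chosen with earlier results of these data known. Hippocampi came from mice aged 10 months, all labelled as C57BL/6. WT mice carry no transgene. PS19 mice carry a human mutant tau transgene under the mouse prion promoter, a model of tau pathology. PS19 Zbp1+/- mice (Zbp1+- in the labels) carry that transgene and are heterozygous for Zbp1, which encodes a sensor of Z-form nucleic acids. Each genotype is 1 library, with no replicate, and the labels used here do not say whether a library pools animals. The comparisons ask how class II expression differs between the PS19 and WT libraries, and between the PS19 Zbp1+/- library and each of the others. No test between genotypes was possible, so every interval below is a 95% counting interval. It covers counting error only and leaves out variation between animals and libraries. Reads counted with no molecular identifier can repeat a molecule, so even the counting error may be larger than shown.

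A class II molecule is a pair of an alpha and a beta chain. In the endoplasmic reticulum the pair binds the invariant chain, encoded by Cd74, which blocks the groove until proteases degrade it in the endosome. The DM heterodimer then exchanges the remaining invariant chain fragment for a peptide. Transcription of these genes is governed by CIITA, a co-activator that interferon gamma induces and that docks on RFX, CREB and NF-Y proteins bound at the X and Y boxes of class II promoters. In the healthy brain parenchyma class II is scarce, and it is best known on border macrophages, on dendritic cells and on activated microglia. In bulk tissue, fewer cells of a type and less RNA per cell cannot be told apart.

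Whole reads recovered from the deposited FPKM values (reads scaled to gene length and library size) summed to between 16400328 and 17109734 per library. Zbp1 had 5 WT reads, 91 PS19 reads and 0 in PS19 Zbp1+/-, although a heterozygote keeps an allele. All 8 hippocampal neuron markers listed (Prox1, C1ql2, Dsp, Fibcd1, Wfs1, Neurod6, Neurod2 and Grik4) had at least 195 reads in every library, but against PS19 the PS19 Zbp1+/- library was 4.12-fold higher in Fibcd1 and 3.24-fold lower in Dsp. The PS19 Zbp1+/- library stood apart in ways that the genotype label does not name. The 6 choroid plexus markers (Ttr, Folr1, Kl, Clic6, Kcnj13 and Aqp1) gave 69811 WT reads, 43542 PS19 reads and 544 in PS19 Zbp1+/-. Xist, the RNA of the inactive X chromosome, gave 11062, 13350 and 0 reads; the labels used here name no sex. Genes with at least 1 read numbered 24741, 25397 and 21408 in the same order. In both comparisons of PS19 Zbp1+/-, Zbp1 dosage cannot be told apart from these other differences of its 1 library. Their part in the class II values was not tested.

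The genes of the I-A molecule, the main class II molecule of this strain, were highest in PS19 and at 0 reads in PS19 Zbp1+/-. H2-Aa, the alpha chain (ENSMUSG00000036594; GRCm38 chromosome 17, 34282744 to 34287827, minus strand), was covered by 63 WT reads, 553 PS19 reads and 0 PS19 Zbp1+/- reads, which are FPKM levels of 1.95, 17.1 and 0. The counting intervals of WT (1.497 to 2.49) and PS19 (15.7 to 18.6) do not overlap, and 3 reads, the limit a count of 0 allows, would be an FPKM of 0.101 in PS19 Zbp1+/-, where the exact interval reaches 0.124. Reads per library size were 8.76-fold higher in PS19 than in WT (interval 6.74 to 11.6). Taken at 3 reads, the PS19 Zbp1+/- level lay at least 169-fold under PS19 and at least 19.3-fold lower than WT. H2-Ab1, the beta chain (ENSMUSG00000073421; chromosome 17, 34263209 to 34269418, plus strand), was covered by 43, 333 and 0 reads in the same order, at FPKM levels of 1.52, 11.8 and 0. It was 7.73-fold higher in PS19 than in WT (interval 5.61 to 10.9), and its PS19 Zbp1+/- level lay at least 102-fold under PS19 and at least 13.1-fold lower than WT. Both chains thus had the same order of libraries, PS19 above WT above PS19 Zbp1+/-. Per gene length the beta chain stood below the alpha chain in PS19, at a FPKM ratio of 0.689 (interval 0.5999 to 0.791); in WT the ratio was 0.781, with an interval of 0.518 to 1.17.

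The I-E pair had the same order in its beta chain, while its alpha chain gene was read in PS19 alone. H2-Eb1, the beta chain (ENSMUSG00000060586; chromosome 17, 34305877 to 34316199, plus strand), was covered by 74 WT reads, 367 PS19 reads and 2 PS19 Zbp1+/- reads, at FPKM levels of 3.62, 17.9 and 0.107. It was 4.95-fold higher in PS19 than in WT (interval 3.85 to 6.44). With 2 reads in PS19 Zbp1+/-, the ratio of that library to PS19 was 0.00595 (interval 0.000718 to 0.0217) and its ratio to WT was 0.0295 (0.00350 to 0.110). H2-Ea-ps, the alpha chain gene (ENSMUSG00000036322; chromosome 17, 34342933 to 34344643, minus strand), is annotated in the table as an unprocessed pseudogene; C57BL/6 mice are known for a deletion at its promoter that leaves them without the E molecule. WT and PS19 Zbp1+/- gave 0 reads and PS19 gave 85, an FPKM of 7.17. The PS19 value was at least 28.3-fold higher than WT, and PS19 Zbp1+/- was at least 25.9-fold lower than PS19; between WT and PS19 Zbp1+/- no fold can be given. Of 12459 genes with at least 85 reads in PS19, a cut-off set at the reads of H2-Ea-ps itself, 3 had none in WT. These were H2-Ea-ps, Gm26809 and Gbp2b, the other 2 named after their values were seen. All 3 libraries are labelled C57BL/6, the strain known for the promoter deletion, yet H2-Ea-ps had 85 reads in PS19. Whether the 3 libraries share an MHC haplotype was not tested, so the H2 values, zeros and comparisons rest on the labelled strain.

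CCAAT, the NF-Y motif at the core of the Y box (read as ATTGG on the other strand), and a loose form of the RFX motif in the X box, read as AGCAACTGATG in H2-Eb1, were sought on both strands of RefSeq promoter windows (GRCm38.p6, 250 bases before to 50 after a start). The table of windows held 8 of 12 class II genes looked for, 4 of them members: H2-Aa, H2-Eb1, H2-DMa and H2-DMb1. A CCAAT match lay in a window of all 8 genes and an X box match in 5 (H2-Eb1, H2-DMb1, H2-Oa, H2-Ob and H2-Eb2). Of all 32851 windows, 37.4% held the first motif, 3.09% the second and 1.42% both. In 4 of the 5 genes the X box match ended 20 to 23 bases before the Y box match, and in H2-Oa 87 bases before. The starts used for the H2-DMa windows lie 9664 bases or more from the gene start of the expression table, and that for H2-DMb2 lies 1942 bases away. The shares count windows, whereas H2-DMa had more than 1 window and 1 of them held no CCAAT match. The stretches from 140 to 11 bases before the start are given for H2-Aa and H2-Eb1, the chains with 0 and 2 reads in PS19 Zbp1+/-, and for H2-Ob and H2-Eb2, whose X and Y box matches are spaced like those of H2-Eb1 and which had 34 and 0 PS19 reads against 367 for H2-Eb1. Capitals mark motif matches, and sequences run 5′ to 3′ on the gene's strand.
H2-Aa, chr17:34287834-34287963, minus strand: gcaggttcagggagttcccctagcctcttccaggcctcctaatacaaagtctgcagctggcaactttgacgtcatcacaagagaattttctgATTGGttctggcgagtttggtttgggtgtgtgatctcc
H2-Eb1, chr17:34305727-34305856, plus strand: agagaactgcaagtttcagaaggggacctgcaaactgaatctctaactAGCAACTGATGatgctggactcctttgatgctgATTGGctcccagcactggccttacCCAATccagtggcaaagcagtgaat
H2-Ob, chr17:34238765-34238894, plus strand: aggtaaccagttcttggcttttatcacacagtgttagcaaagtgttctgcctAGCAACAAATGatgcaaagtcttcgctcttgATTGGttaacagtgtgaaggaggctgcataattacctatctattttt
H2-Eb2, chr17:34325535-34325664, plus strand: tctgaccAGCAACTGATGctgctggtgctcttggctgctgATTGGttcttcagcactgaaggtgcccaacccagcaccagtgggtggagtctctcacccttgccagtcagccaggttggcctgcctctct
A match is a description of letters, not a binding site. The lack of an X box match in H2-Aa says only that the letters searched were not found, not that the gene lacks an X box. H2-Eb2, a second beta chain gene, had 0 reads in all 3 libraries although its stretch holds both motifs.

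Cd74, the invariant chain (ENSMUSG00000024610; chromosome 18, 60803848 to 60812646, plus strand), was the most abundant of the 8 genes in PS19 and nearly absent from PS19 Zbp1+/-. It was covered by 204, 3052 and 15 reads, again ordered WT, PS19, PS19 Zbp1+/-, at FPKM levels of 8.39 (interval 7.27 to 9.62), 125 (121 to 130) and 0.672 (0.376 to 1.11). No pair of these intervals overlaps. PS19 was 14.9-fold higher than WT (interval 12.95 to 17.3), and PS19 Zbp1+/- was 186-fold lower than PS19 (113 to 333) and 12.5-fold lower than WT (7.39 to 22.7). Cd74 stood further above WT in PS19 than the alpha chain it binds: its FPKM was 4.30 times that of H2-Aa in WT (interval 3.23 to 5.80) and 7.34 times in PS19 (6.70 to 8.05).

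**Figure D1:**
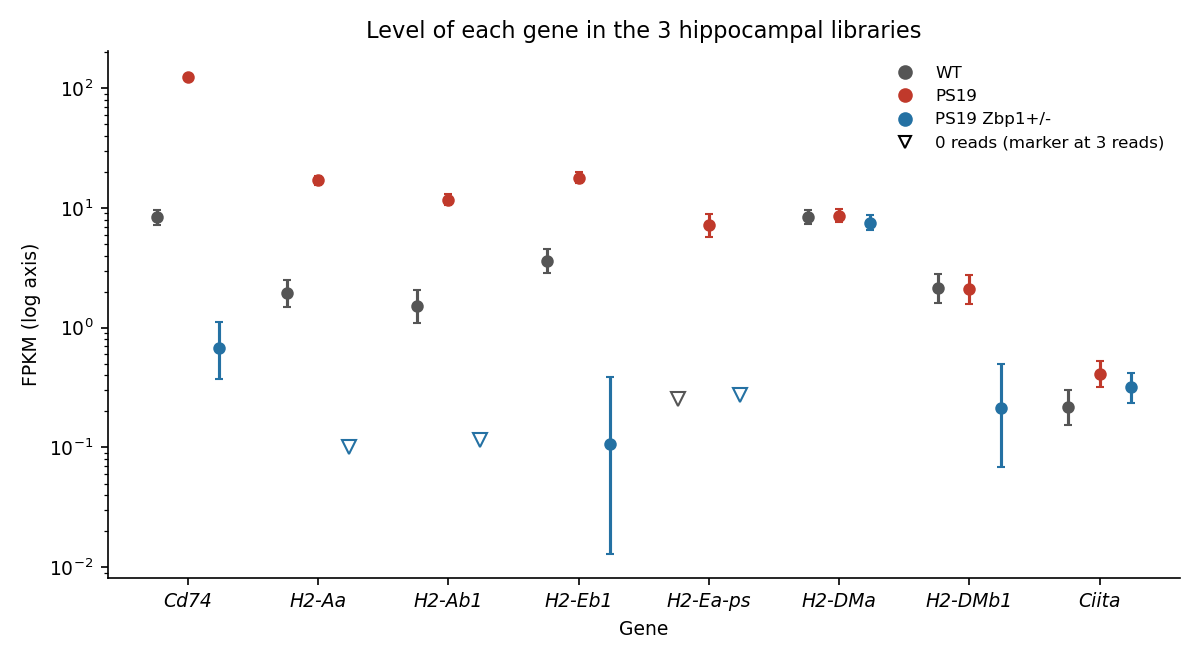
FPKM of the 8 genes on a log axis in WT (grey), PS19 (red) and PS19 Zbp1+/- (blue), 1 library each; bars are exact Poisson 95% counting intervals, and open triangles stand at the FPKM of 3 reads where a library had 0 reads. Cd74, H2-Aa, H2-Ab1, H2-Eb1 and H2-Ea-ps are highest in PS19, H2-DMa is near 8 FPKM in all 3 libraries, and H2-DMb1 is level between WT and PS19 and lower in PS19 Zbp1+/-.

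The DM genes among the 8 were not higher in PS19 than in WT beyond counting error, and they differed from each other in PS19 Zbp1+/-. H2-DMa, the DM alpha chain (ENSMUSG00000037649; chromosome 17, 34135182 to 34139101, plus strand), was covered by 238 WT reads, 245 PS19 reads and 196 PS19 Zbp1+/- reads, at FPKM levels of 8.41, 8.64 and 7.55. All 3 intervals overlap. PS19 stood at 1.03 times WT (0.856 to 1.23), and PS19 Zbp1+/- stood at 0.874 times PS19 (0.720 to 1.06) and 0.898 times WT (0.739 to 1.09). H2-DMb1, a DM beta chain (ENSMUSG00000079547; chromosome 17, 34153072 to 34160230, plus strand), was covered by 55, 54 and 5 reads, at FPKM levels of 2.15, 2.10 and 0.213. WT and PS19 overlap, with a ratio of 0.980 (0.660 to 1.45), and PS19 Zbp1+/- was 9.89-fold lower than PS19 (3.99 to 31.7) and 10.1-fold lower than WT (4.07 to 32.3). H2-DMb1 was therefore low in PS19 Zbp1+/- without having been high in PS19. Per gene length, H2-DMb1 stood at 0.255 of H2-DMa in WT (0.187 to 0.344), 0.244 in PS19 (0.178 to 0.328) and 0.0282 in PS19 Zbp1+/- (0.00905 to 0.0669). H2-DMb2, the neighbouring beta chain gene, is 95.4% identical to H2-DMb1 over 848 aligned transcript bases, so how reads split between the 2 is uncertain; it was covered by 6, 22 and 0 reads.

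Ciita, the transactivator (ENSMUSG00000022504; chromosome 16, 10480059 to 10528418, plus strand), was weakly read in every library. It was covered by 36 WT reads, 68 PS19 reads and 48 PS19 Zbp1+/- reads, at FPKM levels of 0.219, 0.413 and 0.318. PS19 was 1.89-fold higher than WT (interval 1.24 to 2.91). The ratios of PS19 Zbp1+/- to PS19 (0.771, interval 0.521 to 1.13) and to WT (1.45, 0.924 to 2.31) had intervals that include 1, so no difference was detectable at this depth. Ciita reads were present in PS19 Zbp1+/- while H2-Aa and H2-Ab1 were at 0, and the FPKM of Cd74 was 38.3 times that of Ciita in WT, 304 times in PS19 and 2.11 times in PS19 Zbp1+/-.

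**Figure D2:**
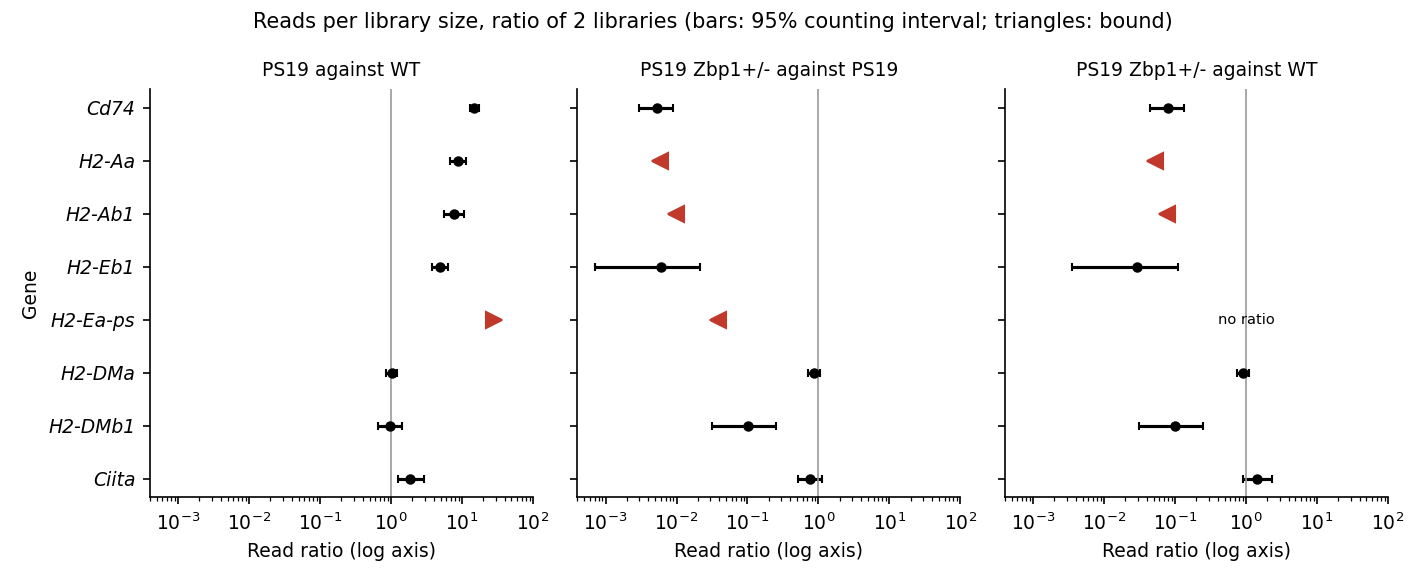
Ratio of reads per library size between 2 libraries for each gene on a log axis, with exact Clopper-Pearson 95% counting intervals; triangles are bounds taken against 3 reads, and the grey line marks a ratio of 1. PS19 stands 14.9-fold above WT for Cd74 and 1.03 for H2-DMa; H2-DMb1 lies left of the line in both comparisons of PS19 Zbp1+/-.

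Differences were taken as log2(FPKM + 1), a scale that shrinks those of weakly read genes, and a gene passed 2-fold at 1 log2 unit. In PS19 against WT, 5 of the 8 genes passed upward and 0 downward; of the 15013 genes tested, those reaching 1 FPKM in WT or PS19, 3.42% passed upward and 1.17% downward. The 5 were Cd74 with a difference of 3.75, H2-Ea-ps with 3.03, H2-Aa with 2.62, H2-Ab1 with 2.34 and H2-Eb1 with 2.03. The median of the 8 differences was 2.19, beside -0.02 over all genes tested. Because the 8 genes were chosen with earlier results known, these values beside the all-gene ones are a description. H2-DMa at 0.03, H2-DMb1 at -0.02 and Ciita at 0.21 did not pass; the sign of H2-DMb1 turned to 0.07 after rescaling to TPM and to 0.0025 after scaling by total reads.

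Between PS19 Zbp1+/- and PS19, 6 of the 8 genes passed downward and 0 upward, beside 6.84% and 3.47% of 15212 genes. Cd74 was at -6.24, H2-Aa at -4.18, H2-Eb1 at -4.10, H2-Ab1 at -3.67, H2-Ea-ps at -3.03 and H2-DMb1 at -1.36. The median was -3.35, beside 0.04 over all genes tested. Between PS19 Zbp1+/- and WT, 5 of the 8 passed downward and 0 upward, beside 3.99% and 2.86% of 14737 genes, with a median of -1.36 beside 0.01. The 5 were Cd74 at -2.49, H2-Eb1 at -2.06, H2-Aa at -1.56, H2-DMb1 at -1.38 and H2-Ab1 at -1.33. For these 5 genes PS19 Zbp1+/- thus lay below WT, with the interval or bound of each read ratio under 1. PS19 is a term of both of its comparisons, which therefore share its counting error. In 5 of the 8 genes PS19 exceeded each of the others by 2-fold or more, beside 2.4% of 15541 genes. Ciita had an FPKM under 1 in every library and never passed the minimum; H2-Ea-ps met it through PS19 alone. All 6 genes called against PS19 and all 5 called against WT were under 1 FPKM in PS19 Zbp1+/- and met the minimum only through the other library, so these counts beside the all-gene shares are a description and support nothing.

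**Figure D3:**
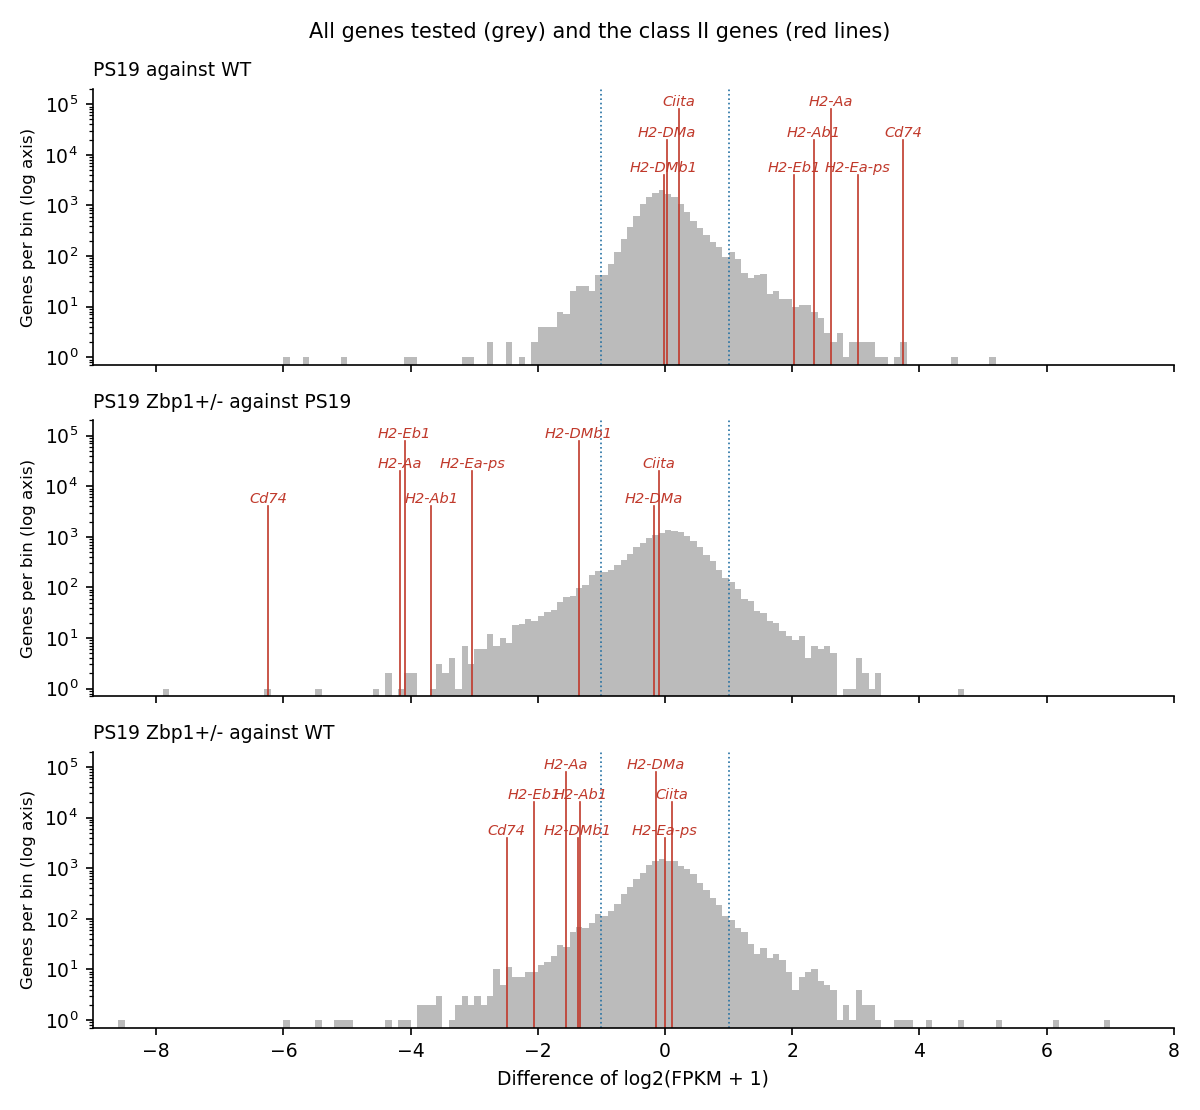
Number of genes per 0.1-wide bin of the difference in log2(FPKM + 1), on a log axis, for all genes tested (grey) in each comparison, with red lines at the 8 genes and dotted lines at 2-fold. The median of the 8 genes is 2.19, -3.35 and -1.36 in the 3 comparisons, while the median over all genes lies within 0.04 of 0.

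The make-up of the class II reads differed between libraries. The 8 genes together had 713 WT reads, 4757 PS19 reads and 266 PS19 Zbp1+/- reads. Cd74 made up 28.6% of them in WT (interval 25.3% to 32.1%), 64.2% in PS19 (62.8% to 65.5%) and 5.64% in PS19 Zbp1+/- (3.19% to 9.13%). H2-DMa made up 33.4%, 5.15% and 73.7% in the same order, and Ciita 5.05%, 1.43% and 18.0%. H2-DMa and Ciita thus held most class II reads of PS19 Zbp1+/-.

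Along chromosome 17, with H2-Oa lying before them, the other class II genes followed here run, in order of start, from H2-DMa through H2-DMb2, H2-DMb1, H2-Ob, H2-Ab1, H2-Aa, H2-Eb1 and H2-Eb2 to H2-Ea-ps, 208 kb away. The genes for class I peptide supply lie between the DM genes and H2-Ob: Psmb9, Tap1, Psmb8 and Tap2. They had reads in every library. In the order WT, PS19, PS19 Zbp1+/-, Psmb9 had 36, 80 and 37, Tap1 had 94, 290 and 142, Psmb8 had 55, 164 and 16, and Tap2 had 195, 328 and 154. The reads at or near 0 in PS19 Zbp1+/- did not extend over every gene of the interval, although Psmb8 was also lower there than in PS19 and WT. A cause shared by the region was not tested.

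**Figure D4:**
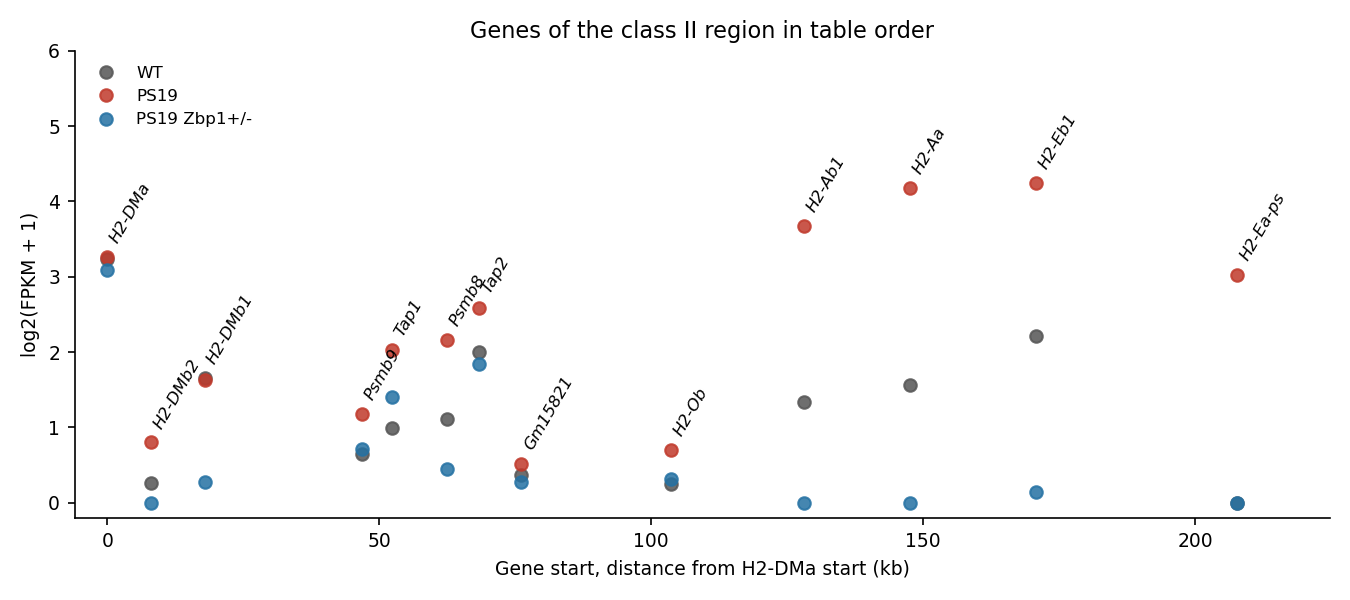
Level as log2(FPKM + 1) against the distance of each gene start from the start of H2-DMa in kb, for genes of the class II interval with more than 3 reads in any library, in WT (grey), PS19 (red) and PS19 Zbp1+/- (blue). H2-Ab1, H2-Aa, H2-Eb1 and H2-Ea-ps at the right end are high in PS19 and at or near 0 in PS19 Zbp1+/-, while H2-DMa at the left end is level.

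A count of 0 at these depths was rare, with each cut-off set at the reads of H2-Ab1. H2-Aa and H2-Ab1 are themselves among the genes counted at 0 in PS19 Zbp1+/-, so these shares are a description and support nothing. H2-Ab1 had 43 reads in WT, and of 13621 genes with at least that many, 21 (0.154%) had 0 reads in PS19 Zbp1+/- and 1 (0.00734%) had 0 in PS19. H2-Ab1 had 333 reads in PS19, and of 8481 genes with at least that many, 5 (0.0590%) had 0 reads in PS19 Zbp1+/-. Those 5 were H2-Aa, H2-Ab1, Xist, Slc4a5 and Tmem72, and the last 3 are named here after their values were seen; Slc4a5 encodes a bicarbonate transporter of the choroid plexus.

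The other genes of the pathway, 37 in all, were taken by role. In PS19 against WT, 8 of the 37 passed 2-fold upward and 0 downward, beside 3.42% and 1.17% of all genes tested. In PS19 Zbp1+/- against PS19, 11 passed downward and 0 upward, beside 6.84% and 3.47%. In PS19 Zbp1+/- against WT, 0 passed in either direction. All 37 were counted whatever their level, while the all-gene shares cover only genes reaching 1 FPKM. Genes under 1 FPKM in both libraries compared could not pass, among them H2-DMb2, H2-Ob, Cd86 and Cd44 between PS19 Zbp1+/- and WT. The median differences of the 37 were 0.31, -0.47 and -0.01 in the order of the comparisons. The median of the wider pathway in PS19 Zbp1+/- was thus near WT while that of the 8 members was below it. With such weakly read genes included, the 0 and this contrast are a description.

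Among the peptide exchange genes, H2-Oa and H2-Ob encode the DO heterodimer, an inhibitor of DM. H2-Oa had 1, 25 and 1 reads, with differences of 1.01 and -1.003 in the first and second comparison, and later pairs of differences follow that order. H2-Ob had 10, 34 and 12 reads, 3.39-fold higher in PS19 than in WT (interval 1.64 to 7.70), and PS19 Zbp1+/- stood at 0.386 times PS19 (0.182 to 0.763).

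None of the 7 promoter factors passed 2-fold in any comparison. Rfx5, a subunit of the X box complex, had 269, 296 and 370 reads in the 3 libraries, and Nfya, a subunit of NF-Y, had 399, 452 and 284. These factors serve many other genes as well.

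Of the 8 genes upstream of Ciita, Irf8 and Spi1, transcription factors of the myeloid lineage, passed 2-fold in PS19 against WT, at 1.47 and 1.13. The share of all genes upward was 3.42%. In PS19 Zbp1+/- against PS19, Irf8 at -1.24 and Ifngr1 at -1.14 passed downward, beside 6.84% of all genes. Irf8 had 98, 487 and 124 reads. Ifng, interferon gamma itself, had 0 reads in every library. Ifngr1, its ligand-binding receptor chain, had 221, 450 and 162 reads, with differences of 0.88 and -1.14, while Ifngr2, the signalling chain, had 1086, 803 and 1011 and differed by -0.41 and 0.43.

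The 7 processing genes were all above WT in PS19 and all below PS19 in PS19 Zbp1+/-, with 2 past 2-fold in the first comparison and 4 in the second, beside 3.42% of all genes upward and 6.84% downward. Ctss, cathepsin S, the protease that trims the invariant chain in antigen-presenting cells, had 848, 4109 and 547 reads, 4.84-fold higher in PS19 than in WT (interval 4.49 to 5.21), and the PS19 Zbp1+/- library was 6.88-fold lower than PS19 (6.29 to 7.53). Ifi30, a thiol reductase that unfolds antigens, had 44, 121 and 21 reads, with differences of 1.18 and -1.79. Ctsd, a lysosomal protease of most cell types, had 4870, 9432 and 3814 reads, with differences of 0.94 and -1.17.

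Of the 4 co-stimulatory genes, Cd86 alone passed 2-fold on log2(FPKM + 1), beside 3.42% of all genes upward and 6.84% downward. It had 20, 120 and 18 reads and differences of 1.14 and -1.14. Icosl had 244, 547 and 242 reads and differences of 0.95 and -0.86, with a read ratio of PS19 to WT of 2.24 (interval 1.92 to 2.61). Cd80 had 11, 29 and 10 reads and Cd40 had 6, 8 and 6. Of the receptors that bind class II, Lag3, an inhibitory receptor, had 111, 1200 and 116 reads and Cd4 had 5, 10 and 17. Among the partners of Cd74 at the cell surface, Cd44, its signalling co-receptor, had 71, 442 and 40 reads and Cxcr4 had 43, 94 and 12, while the ligand Mif had 2339, 1754 and 2142. March1 and March8, ligases that remove class II from the surface, stayed under 2-fold.

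**Figure D5:**
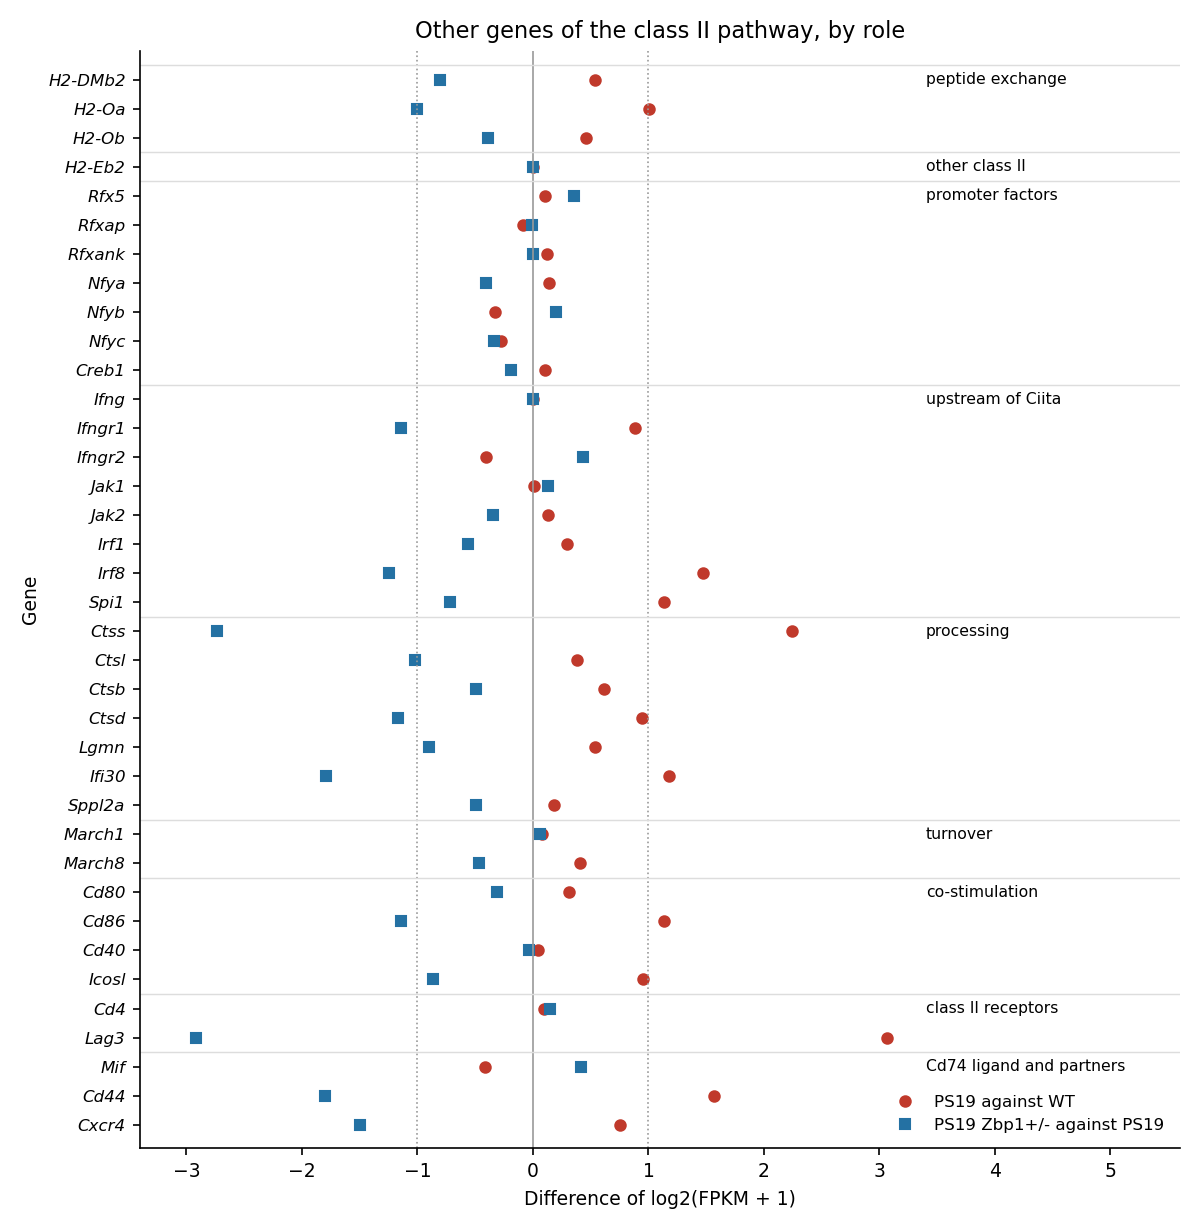
Difference of log2(FPKM + 1) for the 37 other pathway genes by role, for PS19 against WT (red circles) and PS19 Zbp1+/- against PS19 (blue squares), which share the PS19 library; dotted lines mark 2-fold. Ctss, at 2.24 and -2.73, and Lag3, at 3.07 and -2.92, lie furthest from 0, and the promoter factors lie near it.

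Markers of the cells that could carry class II also differed between the libraries. The 7 microglia markers (P2ry12, Tmem119, Csf1r, Cx3cr1, Sall1, Siglech and Aif1) were all read in every library and summed to FPKM levels of 53.4, 114 and 63.3 in WT, PS19 and PS19 Zbp1+/-; 3 of the 7 passed 2-fold upward in PS19 against WT, beside 3.42% of all genes. Between PS19 Zbp1+/- and WT these markers were mixed, with 4 above and 3 below and a median difference of 0.10. Csf1r (1776 against 1484 reads) and Cx3cr1 (768 against 317) were above WT, while P2ry12 was at 0.776 times WT (interval 0.675 to 0.893). The 6 border macrophage markers (Mrc1, Cd163, Lyve1, Pf4, F13a1 and Ms4a7) summed to 201, 295 and 30 reads, and in PS19 Zbp1+/- Pf4 and Ms4a7 were at 0. The 7 dendritic cell markers summed to 447, 440 and 380 reads, most of them from Flt3 and Zbtb46; Cd209a had 16, 9 and 0 reads and Batf3 had 28, 22 and 3. The 5 monocyte and neutrophil markers summed to 24, 59 and 3 reads, and 4 of the 5 were at 0 in PS19 Zbp1+/-.

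Lymphocyte markers were few. The 7 T cell markers summed to 18, 55 and 20 reads; in PS19 Zbp1+/- 6 of the 7 were at 0, Cd3e among them, and Trac held all 20 reads. Of the 5 B cell markers, Ighm, the mu heavy chain, held most reads, with 295, 809 and 94. Cd79a had 6, 1 and 12 reads, Cd79b had 0, 5 and 4, and Pax5 had 0, 2 and 8, while Ms4a1 was at 0 in every library. The low class II levels of PS19 Zbp1+/- thus moved with low border macrophage, monocyte, choroid plexus and Ighm reads. H2-DMa and Ciita were not low in that library beyond counting error, and the few Cd79a and Pax5 reads were highest there. The high levels of PS19 moved with higher summed microglia, border macrophage, monocyte and neutrophil and T cell reads and with higher Ighm reads. Of the 6 border macrophage markers, though, 3 were above WT in PS19 and 3 below (Lyve1, Pf4 and F13a1), and Cd79a was lower. All 6 choroid plexus markers were below WT in PS19, with 43542 against 69811 reads in sum. The part of each of these cell groups in the class II values was not tested.

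The genes most like the class II chains were sought over the 3 libraries, among the 15534 other genes that reached 1 FPKM in any of them. Likeness was the Euclidean distance between log2(FPKM + 1) profiles centred on their mean, from the median profile of H2-Aa, H2-Ab1, H2-Eb1 and Cd74. The nearest gene was Lyz2, lysozyme of myeloid cells, at a distance of 0.181, with 225, 1201 and 51 reads. Cst7, a cystatin of activated microglia, followed at 0.657 with 12, 248 and 0 reads, then Plin4, a lipid droplet protein, at 0.716 with 194, 1155 and 39 reads. Mir154, at 0.729, rests on 1, 9 and 0 reads, and Ifit1, an interferon-induced gene, lay at 0.798 with 39, 400 and 5 reads. With 3 libraries a profile has few degrees of freedom, and likeness in it is a description.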

How the data were processed

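Hippocampal RNA was extracted with TRIzol and made into libraries with a NEB Next Ultra kit, per the labels' protocols. The submitters' processing notes name Trim Galore 0.6.5, STAR 2.5.3a, featureCounts 2.0.4 and the build mm39, with no roles. The gene positions in the table overlap those of GENCODE release M21 (GRCm38) for 100% of 54409 shared IDs, and were identical for 98.3%, so positions are called GRCm38 here although the notes name mm39. The authors deposited FPKM values, 1 column per library, and every sample column was used. FPKM times gene length was a whole multiple of a step, within 0.001 reads, for 100% of the values of each column, which gave whole reads and implied library sizes of 17253479, 17287957 and 15826984 in WT, PS19 and PS19 Zbp1+/-. These sizes differ from the summed reads (16746085, 16400328 and 17109734), so the deposited values were not scaled by those sums. Strandedness and read sharing between copies are not given in the sources used here.

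Differences were taken on log2(FPKM + 1) over genes of any biotype that reached 1 FPKM in either library compared; 2-fold means 1 log2 unit. Read ratios per implied library size have exact Clopper-Pearson intervals and levels have exact Poisson intervals. Where a library had 0 reads, 3 reads took their place and the ratio is a bound; a planned bound for 1 to 3 reads was replaced by the ratio with its interval. No ratio is given where both libraries had 3 reads or fewer. The genes named are the 8 members, the listed pathway and marker genes, Zbp1, and the 5 nearest profiles; Xist, the neighbours between the DM genes and H2-Ob, and genes at 0 reads in a library were added after their values were seen. The members and lists were chosen with earlier results of these data known. Of the listed pathway and marker genes, 3 are not reported here and enter no count or sum over a list. Symbols that a spreadsheet had turned into dates, 27 in all, were read from the gene IDs. Alternatives were pseudocounts of 0.1 and 0.5, TPM and total read scaling, a 4-fold threshold, other filters, protein-coding genes only, the mean, no Cd74, and read ratios. Read recovery and calls were tested on simulated data. Versions were BLAST 2.17.0, matplotlib 3.10.9, scipy 1.17.1, pandas 2.3.3, numpy 2.4.6 and Python 3.11.15.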

Additional observations from a re-analysis of the deposited data

How the results depend on the processing

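No gene among the 8 that was past 2-fold changed direction under the pseudocounts and scalings tried. The median difference of the 8 genes was 1.75 for PS19 against WT when the mean was used, and 2.63 as a read ratio with at least 3 reads. For PS19 Zbp1+/- against PS19 it was -6.31 with a pseudocount of 0.1 and -5.68 as a read ratio, and for PS19 Zbp1+/- against WT -3.15 and -3.49. At 4-fold, 2 of the 8 genes remained lower in PS19 Zbp1+/- than in WT, in place of 5. Set against counting error, 84 of the values of single genes under pseudocounts and scalings were classed as the same and 12 as moved. All 12 moved with a pseudocount of 0.1, and each moved away from 0. Over all genes tested, 514 higher and 176 lower genes in PS19 against WT became 959 and 364 with a pseudocount of 0.1, 70 and 14 at 4-fold, 126 and 38 with a mean FPKM of at least 5, and 280 and 37 among protein-coding genes. For PS19 Zbp1+/- against PS19, 528 and 1041 became 910 and 1746, 61 and 164, 240 and 273, and 255 and 659 in the same order. For PS19 Zbp1+/- against WT, 422 and 588 became 799 and 1007, 66 and 92, 136 and 117, and 133 and 283. With TPM scaling the all-gene median went from 0.04 to -0.21 in PS19 Zbp1+/- against PS19 and from 0.01 to -0.13 against WT, and in the first of these the higher share of the genes past 2-fold from 33.7% to 17.8% (325 and 1497 genes); total read scaling gave 22.3%. In PS19 Zbp1+/- against WT that share was 41.8%, 30.9% with TPM and 31.0% with total reads. No paired analysis was possible because each genotype has 1 library, and for the same reason no library could be left out. Depth limits H2-Eb1 and H2-DMb1 in PS19 Zbp1+/-, with 2 and 5 reads, and Ciita in every library.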
